A study of Mus musculus with 10 samples.

Results

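The 200 genes described here are those whose transcript levels differed most between 8 clones of the established mouse embryo fibroblast line NIH3T3. Of these clones, 4 stably overexpress FOXP2 and 4 stably overexpress FOXP2-CPED1, a FOXP2 arrangement in the wording of the series. The controls are 1 library of parental cells and 1 of cells carrying the vector, and the labels do not say whether the vector cells are a clone. The FOXP2 and FOXP2-CPED1 clones are independent within each construct, per the series' design text, and each clone was sequenced as 1 library. A difference between clones can therefore not be told apart from a difference between cultures or libraries, and no test of a single clone is possible.

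Members were chosen by their measured values. A row had to name 1 gene with a mean of at least 5 RPKM (reads per kilobase of transcript, scaled to the mapped reads of the library) over the 8 clones, which left 7745 expressed genes. These were ranked by the standard deviation (SD) of log2(RPKM + 1) over the 8 clones, and the first 200 (2.58%) were taken. The spread between clones is thus what the rule used, and it is described here without a test. Parental and vector cells took no part in the choice.

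A clone is grown from a single founder cell, so a state which that cell held can be passed on to the whole line. Fibroblasts can hold several such states. Acute phase and complement genes respond to inflammatory signals through factors such as NF-kappaB and the C/EBP family. Contractile and matricellular genes such as Acta2 and Ctgf respond to actin tension and TGF-beta through SRF and YAP, and genes of serine synthesis and amino acid stress respond to the transcription factor ATF4. In bulk RNA, fewer cells in a state and less RNA per cell cannot be told apart.

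The libraries were alike in most technical measures. Summed RPKM ran from 794682 to 944602, between 12696 and 13172 rows reached 1 RPKM, and relative depth, taken from step sizes among values under 0.3 RPKM, was 0.911 to 1.31 times that of the parental library, read from a binned histogram of ratios. The 2 rows for genes of the mitochondrial genome stood at exactly 0 in FOXP2-CPED1 clone 3 and in clones 2 and 4 with FOXP2, against a sum of 33213 to 41130 RPKM in the other 7 libraries. These 3 clones lay together beyond the other 5 in 1 of the 200 genes (0.5%), against 0.736% of all expressed genes. All 14 fibroblast markers in the table reached 1 RPKM in some library, and their sum was 6815 to 10042 RPKM in the clones and 9956 and 10064 in the controls. Sums over the 10 epithelial, 8 endothelial and 10 blood or immune markers in the table stayed between 5.55 and 60.1 RPKM. Cdh1, the epithelial cadherin, reached at most 2.37 RPKM and Cdh5, the endothelial cadherin, at most 0.536 RPKM. The mouse Foxp2 row stood at 0.0674 to 1.02 RPKM in the clones and at 0.0798 and 0.0785 in the controls, and whether reads of the introduced construct can align to that row is unknown.

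The spread among the 200 genes was wide. Their median SD was 0.913 on the log2 scale, against 0.251 over all expressed genes, and the median ratio of the highest to the lowest clone, with 1 RPKM added to each, was 6.64 against 1.68. At least a 4-fold range was seen in 198 genes and at least a 10-fold range in 54. The last genes taken were Nupr1 (SD 0.757), Fzd1 (0.756) and Sepp1 (0.756), and the first left out were Il1rap (0.756), Adamts2 (0.756) and Zfp36l1 (0.756), so the edge of the list is not a natural break. By annotation 189 of the 200 are protein coding. Their median level of 18.7 RPKM was close to the 20.9 RPKM of all expressed genes.

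**Figure D1:**
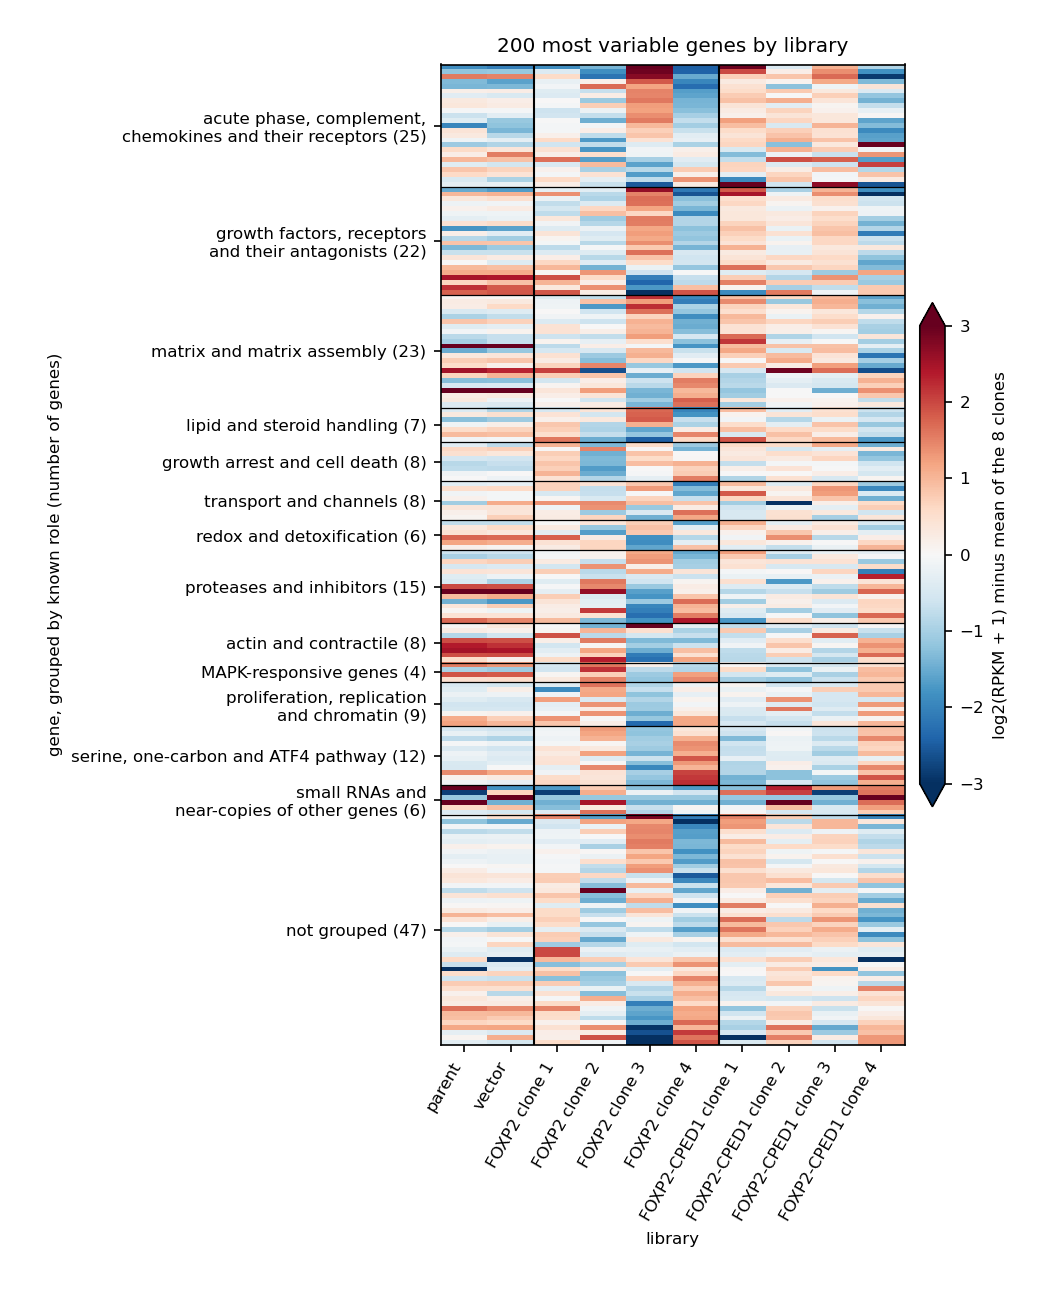
Each row is 1 of the 200 genes, grouped by role, and each column is 1 library. Colour gives log2(RPKM + 1) minus the mean of the 8 clones, limited to 3 in either direction, and FOXP2 clone 3 and FOXP2 clone 4 carry opposite colours in most groups.

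The 8 clones did not share the variation evenly. FOXP2 clone 3 held the highest value of 54 genes and the lowest of 59, and FOXP2 clone 4 the highest of 35 and the lowest of 55. FOXP2 clone 2 was highest in 35 and lowest in 25, and FOXP2-CPED1 clone 4 highest in 14 and lowest in 31. FOXP2-CPED1 clone 3 was at an extreme in the fewest genes, highest in 8 and lowest in 3. For 4 genes the lowest clones were tied at 0, and the first of them was counted. Among all expressed genes the order differed: FOXP2 clone 2 was highest in 30.5% of them but in 17.5% of the 200, while FOXP2 clone 3 was highest in 18.2% of them and in 27% of the 200.

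**Figure D2:**
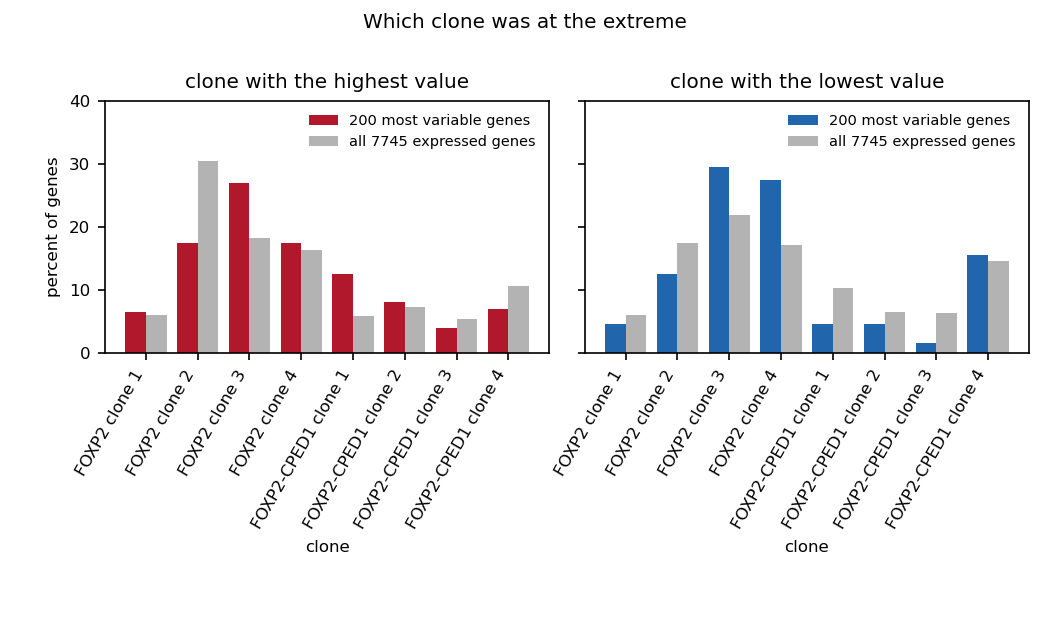
Bars give the percentage of genes whose highest value (left) or lowest value (right) lay in each clone, in colour for the 200 genes and in grey for all expressed genes. FOXP2 clone 3 holds 27% of the highest and 29.5% of the lowest values of the 200 genes.

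Many genes had a wide gap between neighbouring clones. Among genes chosen for a large SD, such a gap does not tell separate sets of clones from a spread along a scale. For each gene the clones were ordered and divided at the widest gap between neighbours. In 120 of the 200 genes (60%) that gap was at least 2-fold, against 2.14% of all expressed genes, a figure that the choice by SD itself raises. A single clone stood apart in 72 genes (36%, against 1.41% of all expressed genes), above the others in 32 and below them in 40. FOXP2 clone 3 was the lone clone in 23 of these, FOXP2 clone 4 in 22, FOXP2-CPED1 clone 4 in 10 and FOXP2 clone 2 in 8. Over all expressed genes the order differed. There FOXP2 clone 4 was alone high in 13 and alone low in 23, and FOXP2 clone 3 in 12 and 14. FOXP2 clone 2 was alone high in 15 and alone low in 7, and FOXP2-CPED1 clone 4 in 6 and 8. The 4 FOXP2 clones lay on 1 side of the widest gap and the 4 FOXP2-CPED1 clones on the other in 0 of the 120 genes. With a gap of 1.5 on the log2 scale, 39 genes remained.

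Some clones of different constructs resembled each other. The first principal component of the 200 genes held 50.5% of their variance, with FOXP2 clone 3 (16.7), FOXP2-CPED1 clone 1 (10.1) and FOXP2-CPED1 clone 3 (7.78) at one end and FOXP2-CPED1 clone 4 (-14.5), FOXP2 clone 4 (-13.3) and FOXP2 clone 2 (-8.11) at the other. The second component held 18.9% and put FOXP2 clone 4 (8.81) opposite FOXP2 clone 2 (-8.50) and FOXP2-CPED1 clone 4 (-8.45). Across the 200 genes, deviations from the clone mean correlated best between FOXP2 clone 3 and FOXP2-CPED1 clone 1 (r = 0.526). FOXP2-CPED1 clones 1 and 3, which share a construct, followed closely (r = 0.519). The correlation was lowest between FOXP2 clone 4 and FOXP2-CPED1 clone 1 (r = -0.691). These correlations run over genes of 2 libraries each, and genes are not independent replicates. The median r was -0.217 over the 12 pairs of clones with the same construct and -0.132 over the 16 pairs with different constructs. Centring each gene on the mean of the 8 clones alone sets an average of about -0.143 where clones do not resemble each other. FOXP2 clones 2 and 4 and FOXP2-CPED1 clone 4 lay together above the other 5 clones in 26 of the 200 genes and below them in 48, 37% in all, against 18.3% of all expressed genes. This set of clones was read from the first component of the same genes, so the count describes it and tests nothing.

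Known roles were assigned to 153 of the 200 genes after their values were seen, in 13 groups. The medians by group show 2 opposite patterns. The medians of inflammation, growth factors, matrix and lipid handling were high in FOXP2 clone 3 and low in FOXP2 clone 4 and FOXP2-CPED1 clone 4. Those of serine and ATF4 genes, proliferation, MAPK response and contraction were low in FOXP2 clone 3. Single genes depart from their group: of the 7 lipid genes, Ces1d, Lpl and Pltp were lowest in FOXP2 clone 3 and above the clone mean in FOXP2 clone 4.

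**Figure D3:**
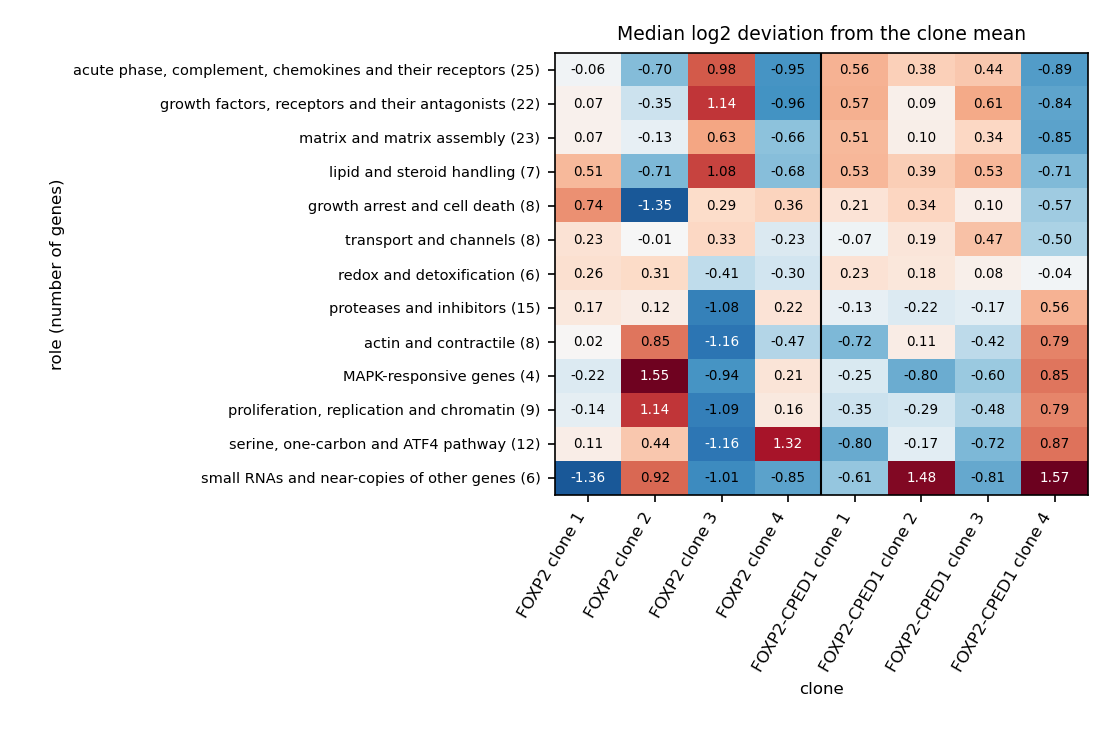
Each cell gives the median, over the genes of a role, of log2(RPKM + 1) minus the mean of the 8 clones. Inflammatory genes stand at 0.98 in FOXP2 clone 3 and -0.95 in FOXP2 clone 4, and serine and ATF4 genes at -1.16 and 1.32.

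The largest group held 25 genes and is named for the acute phase, complement, chemokines and their receptors. It is mixed and also holds other immune genes such as Aim2, Itgb7, Lat and Siglecg. FOXP2 clone 3 was highest in 12 of the 25 genes, and FOXP2 clone 4 (9) or FOXP2-CPED1 clone 4 (8) lowest in most. Saa3, an acute phase serum amyloid, read 8.07, 11.6, 271 and 5.08 RPKM in the FOXP2 clones, 253, 23.7, 68.0 and 16.8 in the FOXP2-CPED1 clones, and 8.04 and 7.02 in parental and vector cells, always in the order of clones 1 to 4. C3, the central protein of the complement cascade, read 39.96, 14.3, 410.5 and 9.20 RPKM in the FOXP2 clones, 213, 62.1, 143 and 14.6 in the FOXP2-CPED1 clones, and 23.2 and 23.7 in parental and vector cells. For both genes FOXP2 clone 3 and FOXP2-CPED1 clones 1 and 3 were the 3 highest libraries, while FOXP2 clone 4 was the lowest. Cxcl12, a chemokine that attracts lymphocytes and stem cells, read 16.6, 1.58, 76.8 and 3.16 RPKM in the FOXP2 clones, 18.4, 19.9, 37.0 and 0.616 in the FOXP2-CPED1 clones, and 33.6 and 32.0 in parental and vector cells. It was below 4 RPKM in FOXP2 clones 2 and 4 and FOXP2-CPED1 clone 4, and above both controls in FOXP2 clone 3 and FOXP2-CPED1 clone 3.

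Not every inflammatory gene followed this order. Gpnmb, a glycoprotein of lysosomes and the cell surface, read 27.5, 14.7, 3.35 and 29.0 RPKM in the FOXP2 clones, 233, 15.4, 160.1 and 3.14 in the FOXP2-CPED1 clones, and 19.5 and 20.2 in parental and vector cells. FOXP2-CPED1 clones 1 and 3 stood far above the other libraries, and FOXP2 clone 3 was near the bottom. Ccl5, a chemokine of T cells and monocytes, read 2.95, 2.62, 3.63 and 2.12 RPKM in the FOXP2 clones, 8.38, 1.53, 6.496 and 46.0 in the FOXP2-CPED1 clones, and 1.85 and 2.23 in parental and vector cells. It was high in FOXP2-CPED1 clone 4 alone. Its neighbour on chromosome 11, the chemokine gene Ccl9, read 25.8, 4.89, 17.4 and 20.9 RPKM in the FOXP2 clones, 13.4, 39.5, 32.4 and 17.2 in the FOXP2-CPED1 clones, and 28.3 and 24.4 in parental and vector cells, with FOXP2 clone 2 alone at the bottom, so the neighbours differed in their leading clones. Aim2, a sensor of cytosolic DNA, was lowest in FOXP2-CPED1 clone 1 at 0.987 RPKM and reached 18.0 in FOXP2 clone 4. The factors Cebpd and Cebpb, which act on acute phase promoters, were both highest in FOXP2 clone 3 (185 and 222 RPKM). For Cebpb this was nearly a tie, at 0.722 above the clone mean on the log2 scale against 0.705 in FOXP2-CPED1 clone 2. Cebpb also differed between the controls, with 175 RPKM in parental and 51.5 in vector cells, and it was lowest in FOXP2-CPED1 clone 4 at 34.7.

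Upstream stretches of Saa3 and C3 are shown because both genes are led by the same 3 clones and hold the letters of a C/EBP site. The letters searched were TTGCNNAA on both strands, found in 10.8% of the 32851 RefSeq promoter entries of the mouse build GRCm38.p6. Among promoter entries of the expressed genes the share was 8.30%. Capitals mark the match. A match is a description of letters, not a bound site.
Saa3: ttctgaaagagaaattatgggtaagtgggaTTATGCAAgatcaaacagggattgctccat
C3: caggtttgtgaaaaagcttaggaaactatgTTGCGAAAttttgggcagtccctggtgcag
The stretch of Saa3 is chr7:46715746-46715805 on the minus strand and that of C3 is chr17:57228152-57228211 on the minus strand, both in GRCm38.p6. The deposited values were made on an earlier build, mm9, so no coordinates of the table are given. Of the 200 genes, 135 had a promoter entry, and no comparison of the whole set with other genes is made here.

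Growth factors, their receptors and antagonists made up 22 genes, 12 of them highest in FOXP2 clone 3 and 9 lowest in FOXP2 clone 4. Hgf, the ligand of the receptor Met, read 4.15, 4.00, 37.4 and 0.423 RPKM in the FOXP2 clones, 21.2, 2.17, 11.6 and 0.745 in the FOXP2-CPED1 clones, and 1.17 and 0.926 in parental and vector cells. Igfbp4, which binds insulin-like growth factors, read 173, 176, 725 and 166 RPKM in the FOXP2 clones, 281, 199, 303 and 133 in the FOXP2-CPED1 clones, and 146 and 146 in parental and vector cells. Pdgfra, a receptor of platelet-derived growth factor, read 75.9, 28.0, 177 and 31.9 RPKM in the FOXP2 clones, 76.0, 69.8, 87.1 and 28.9 in the FOXP2-CPED1 clones, and 48.3 and 51.9 in parental and vector cells. All 3 were highest in FOXP2 clone 3, and Igfbp4 was otherwise within 133 to 303 RPKM in the other 9 libraries. The receptors S1pr1 and S1pr3 for sphingosine 1-phosphate, the Wnt receptor Fzd1 and the orphan receptor Gpr153 also peaked in FOXP2 clone 3, at 31.7, 28.8, 108 and 20.1 RPKM.

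Other genes of the group had their lowest values in that clone. Grb10, an imprinted adaptor that dampens insulin and growth factor receptors, read 72.9, 22.6, 0.0398 and 74.5 RPKM in the FOXP2 clones, 4.48, 58.6, 17.7 and 33.9 in the FOXP2-CPED1 clones, and 68.0 and 73.6 in parental and vector cells. It was 0.0398 RPKM in FOXP2 clone 3 and below 5 in FOXP2-CPED1 clone 1, while the controls and FOXP2 clones 1 and 4 held 68.0 to 74.5. Ptn, a heparin-binding growth factor, read 18.8, 6.79, 0.263 and 2.24 RPKM in the FOXP2 clones, 7.63, 1.82, 12.1 and 1.64 in the FOXP2-CPED1 clones, and 27.9 and 26.8 in parental and vector cells. Ptgfr, the receptor of prostaglandin F2alpha, read 10.5, 5.52, 0.0929 and 2.28 RPKM in the FOXP2 clones, 15.0, 8.601, 8.55 and 1.61 in the FOXP2-CPED1 clones, and 7.81 and 9.34 in parental and vector cells. Both were lowest in FOXP2 clone 3, and every clone had less Ptn than the controls. Agt, the precursor of angiotensin, read 61.0, 12.8, 66.6 and 2.97 RPKM in the FOXP2 clones, 134, 21.0, 62.1 and 1.64 in the FOXP2-CPED1 clones, and 46.8 and 48.8 in parental and vector cells, and Gas6, the ligand of the TAM receptors, read 27.5, 4.39, 11.6 and 5.42 RPKM in the FOXP2 clones, 44.1, 24.1, 21.4 and 4.88 in the FOXP2-CPED1 clones, and 27.4 and 26.0 in parental and vector cells. These were lowest in FOXP2-CPED1 clone 4 and in FOXP2 clone 2, and highest in FOXP2-CPED1 clone 1.

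Agt and Igfbp4 hold the letters TATAAA, which TBP recognises, on their own strand 20 to 40 bases before their start. So do 1.99% of all RefSeq promoters and 0.970% of those of the expressed genes. Agt and Igfbp4 are shown as members of the same role group with different leading clones, and the capitals mark these letters.
Agt: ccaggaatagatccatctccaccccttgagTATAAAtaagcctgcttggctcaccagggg
Igfbp4: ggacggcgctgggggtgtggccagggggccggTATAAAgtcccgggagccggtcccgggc
These stretches are chr8:124569707-124569766 on the minus strand for Agt and chr11:99041184-99041243 on the plus strand for Igfbp4, in GRCm38.p6.

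The 23 genes of the matrix and its assembly were highest in FOXP2 clone 3 (7), FOXP2-CPED1 clone 1 (6) or FOXP2 clone 4 (5), and 10 were lowest in FOXP2 clone 4. Clec3b, which encodes tetranectin, a plasminogen-binding protein, read 82.9, 2.25, 16.2 and 12.5 RPKM in the FOXP2 clones, 13.1, 151, 63.1 and 2.20 in the FOXP2-CPED1 clones, and 115 and 97.3 in parental and vector cells. Col14a1, a collagen attached to fibrils, read 3.37, 2.36, 24.9 and 0.511 RPKM in the FOXP2 clones, 9.70, 7.58, 10.4 and 0.848 in the FOXP2-CPED1 clones, and 5.06 and 4.84 in parental and vector cells. Dcn, the proteoglycan decorin, read 223, 74.8, 342 and 128 RPKM in the FOXP2 clones, 267, 315, 214 and 34.8 in the FOXP2-CPED1 clones, and 202 and 209 in parental and vector cells. Clec3b was near 2 RPKM in FOXP2 clone 2 and FOXP2-CPED1 clone 4 only, while Col14a1 and Dcn were highest in FOXP2 clone 3. Mgp, an inhibitor of calcification, and Smoc1, a matricellular protein, were highest in FOXP2 clone 2 (17.2 RPKM) and in FOXP2-CPED1 clone 1 (12.5 RPKM), and both were lowest in FOXP2 clone 4 (0.989 and 0.198 RPKM). Col12a1 stood apart in FOXP2-CPED1 clone 1 at 44.8 RPKM, against 3.45 to 13.8 in the other clones. FOXP2 clone 4 stood apart for Vwf, the von Willebrand factor, with 17.1 RPKM against 1.54 to 5.56, and for the adhesion receptor Tenm4, with 26.2 against 2.38 to 9.91. Vwf is an endothelial marker, and the summed endothelial markers were highest in the same clone, at 24.5 RPKM. Vwf itself made up 17.1 RPKM of that sum, so the sum is not separate from Vwf. Cdh5 was 0.0182 RPKM there. The protocadherin Pcdh10 was 28.7 RPKM in FOXP2-CPED1 clone 1 and 20.8 in FOXP2 clone 3, against 3.85 to 10.8 in the other clones. Col3a1, a fibrillar collagen, was the most abundant of the group and ranged from 169.9 RPKM in FOXP2 clone 2 to 906 in FOXP2-CPED1 clone 2.

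The matricellular genes Ctgf and Thbs1 and 4 of the 8 contractile genes had their highest values in the controls. Ctgf, a matricellular protein, read 34.5, 65.0, 9.74 and 53.4 RPKM in the FOXP2 clones, 11.4, 26.6, 9.09 and 70.8 in the FOXP2-CPED1 clones, and 350.0 and 374 in parental and vector cells. Thbs1, thrombospondin 1, read 8.20, 17.2, 14.3 and 3.63 RPKM in the FOXP2 clones, 29.8, 28.2, 28.2 and 12.1 in the FOXP2-CPED1 clones, and 160.2 and 179.5 in parental and vector cells. Every clone was below both controls for both genes, and the clones still differed widely among themselves, with FOXP2-CPED1 clone 3 lowest for Ctgf and FOXP2 clone 4 lowest for Thbs1. Acta2, smooth muscle actin, read 114, 204, 28.6 and 175 RPKM in the FOXP2 clones, 71.9, 210.4, 87.3 and 414 in the FOXP2-CPED1 clones, and 482 and 491 in parental and vector cells, and Tagln, an actin-binding protein of smooth muscle, read 19.8, 52.96, 6.34 and 6.28 RPKM in the FOXP2 clones, 13.5, 25.1, 13.7 and 36.6 in the FOXP2-CPED1 clones, and 70.3 and 68.5 in parental and vector cells. Myl9, a regulatory light chain of myosin, read 3.04, 5.12, 1.92 and 2.73 RPKM in the FOXP2 clones, 4.50, 9.52, 5.12 and 13.9 in the FOXP2-CPED1 clones, and 29.4 and 25.8 in parental and vector cells. FOXP2-CPED1 clone 4 was the clone nearest to the controls for Acta2 and Myl9, and FOXP2 clone 2 for Tagln. Ankrd1, a nuclear partner of titin and a target of YAP, was 61.4 and 58.5 RPKM in the controls and 3.00 to 24.0 in the clones. FOXP2 clone 3 also stood apart for Phactr1, a regulator of actin and protein phosphatase 1, with 85.8 RPKM against 2.11 to 7.43 in the other clones.

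The upstream stretch of Myl9 is shown because Myl9 is the contractile gene with the largest share of its clone variance between constructs and holds a CArG box, the letters that SRF recognises. This motif, searched on both strands, is in 1.63% of all RefSeq promoters and 1.34% of those of the expressed genes. Capitals mark it in chr2:156775273-156775332 on the plus strand, GRCm38.p6.
Myl9: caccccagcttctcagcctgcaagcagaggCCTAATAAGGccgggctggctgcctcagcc

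**Figure D4:**
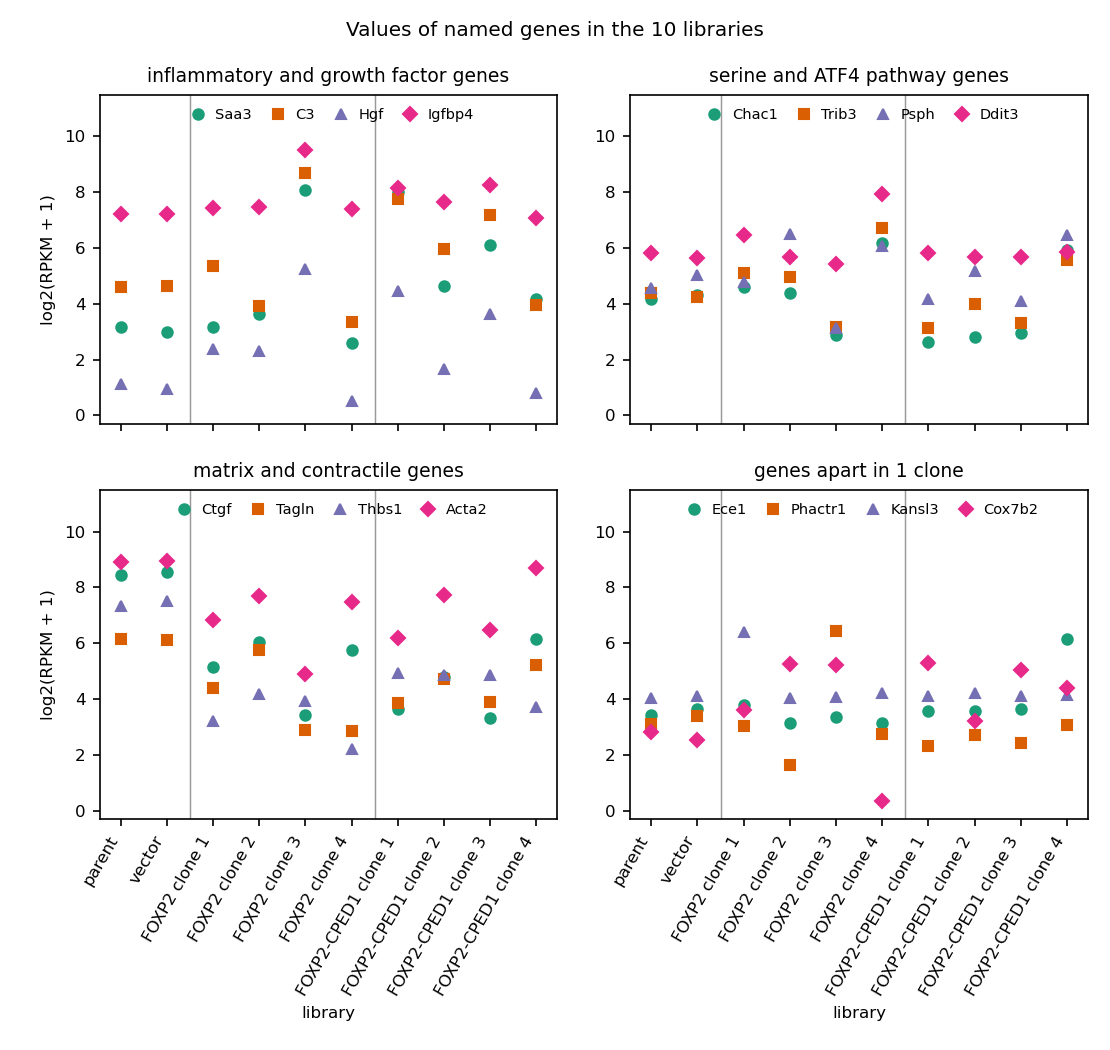
Points give log2(RPKM + 1) of 16 named genes in each of the 10 libraries, with lines dividing the controls, the FOXP2 clones and the FOXP2-CPED1 clones. Saa3, C3 and Hgf peak in FOXP2 clone 3, Chac1 and Trib3 in FOXP2 clone 4, and Ctgf and Thbs1 in the controls.

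Serine synthesis, one-carbon metabolism and the ATF4 pathway gave 12 genes with the reverse order of clones. FOXP2 clone 4 was highest in 7 of them and FOXP2 clone 2 in 4, while FOXP2 clone 3 was lowest in 8. Chac1, which degrades glutathione, read 23.3, 20.2, 6.43 and 70.8 RPKM in the FOXP2 clones, 5.13, 5.998, 6.70 and 59.6 in the FOXP2-CPED1 clones, and 17.2 and 18.9 in parental and vector cells. Trib3, a pseudokinase that restrains AKT, read 33.8, 29.8, 7.89 and 104 RPKM in the FOXP2 clones, 7.81, 15.0, 8.95 and 46.1 in the FOXP2-CPED1 clones, and 19.8 and 18.0 in parental and vector cells. Psph, the last enzyme of serine synthesis, read 26.5, 89.2, 7.70 and 66.4 RPKM in the FOXP2 clones, 16.8, 34.9, 16.02 and 87.9 in the FOXP2-CPED1 clones, and 22.5 and 31.5 in parental and vector cells. In all 3 genes FOXP2 clone 4 and FOXP2-CPED1 clone 4 were above both controls, and FOXP2 clone 3 and FOXP2-CPED1 clones 1 and 3 were below them. Ddit3, the stress factor CHOP, read 87.5, 50.1, 41.8 and 244 RPKM in the FOXP2 clones, 55.0, 49.6, 50.1 and 56.3 in the FOXP2-CPED1 clones, and 55.9 and 48.8 in parental and vector cells, and was apart in FOXP2 clone 4 alone. The leading clone differed within the group. Phgdh, the first enzyme of that pathway, and Shmt2, which takes serine into the mitochondrial folate cycle, were highest in FOXP2 clone 2 at 436 and 113 RPKM, while Atf3, Nupr1 and Aldh1l2 were highest in FOXP2 clone 4 at 27.7, 142 and 60.05 RPKM. Cth, which makes cysteine from cystathionine, was highest in FOXP2-CPED1 clone 4 at 24.8 RPKM. FOXP2 clones 2 and 4 and FOXP2-CPED1 clone 4 were together above the other 5 clones in 7 of the 12 genes. The same held in 26 of the 200 genes and in 791 of the 7745 expressed genes. This set of clones was read from the first component of the 200 genes, and roles were assigned after their values were seen. The count of 7 therefore describes the group and tests nothing. Both controls were within the clone range in all 12.

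ATF4 binds elements that join a site of its own type with one of the C/EBP type. The letters TGATGNAA, searched on both strands, were found in promoters of Atf3, Chac1, Nupr1 and Trib3 from this group and of Phactr1 from another. They were found in 3.97% of all RefSeq promoters and 1.99% of those of the expressed genes. These letters and those of the C/EBP site cannot match the same stretch in full. The match of Trib3 does not lie before the start, and its stretch is not shown. Capitals mark the match, here on the opposite strand in each gene.
Chac1: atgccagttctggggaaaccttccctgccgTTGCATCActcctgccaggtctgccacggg
Atf3: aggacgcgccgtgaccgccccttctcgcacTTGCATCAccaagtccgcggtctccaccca
Nupr1: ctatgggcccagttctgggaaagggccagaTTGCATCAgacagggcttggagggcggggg
The stretches are chr2:119351019-119351078 on the plus strand for Chac1, chr1:191183414-191183473 on the minus strand for Atf3 and chr7:126625551-126625610 on the minus strand for Nupr1, in GRCm38.p6.

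Most proliferation and MAPK genes were highest in FOXP2 clone 2. Of 9 genes of proliferation, replication and chromatin, 5 were highest there and 8 lowest in FOXP2 clone 3. Ccnd1, the cyclin that drives entry into the cell cycle, read 42.7, 114, 15.4 and 56.7 RPKM in the FOXP2 clones, 32.1, 36.0, 26.5 and 109 in the FOXP2-CPED1 clones, and 46.9 and 48.5 in parental and vector cells. Etv4, a transcription factor induced by ERK signalling, read 2.14, 19.8, 1.71 and 1.53 RPKM in the FOXP2 clones, 5.91, 1.00, 3.04 and 7.83 in the FOXP2-CPED1 clones, and 1.42 and 1.22 in parental and vector cells. Dusp4, a phosphatase that feeds back on MAP kinases, read 11.1, 27.0, 3.38 and 25.8 RPKM in the FOXP2 clones, 3.86, 3.37, 5.29 and 16 in the FOXP2-CPED1 clones, and 12.6 and 13.03 in parental and vector cells. Ccnd1 was high in FOXP2 clone 2 and FOXP2-CPED1 clone 4, Etv4 in FOXP2 clone 2 alone, and Dusp4 in FOXP2 clones 2 and 4. Fosl1, a subunit of AP-1, was also apart in FOXP2 clone 2, at 82.4 RPKM against 14.7 to 36.4 in the other clones, with 78.8 and 67.6 in the controls. Lbr, the lamin B receptor, stood apart in FOXP2-CPED1 clone 2 at 36.0 RPKM, and Rrs1, a ribosome assembly factor, was lowest in FOXP2 clone 1 at 3.38 RPKM. Plk2, a kinase induced by serum and p53, was 23.2 to 119.8 RPKM in the clones and 189.5 and 185 in the controls.

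FOXP2 clone 2 held the lowest value of 5 of the 8 genes of growth arrest and cell death. Sgk1, a kinase induced by serum and glucocorticoids, was highest there instead, at 309.9 RPKM against 40.7 to 142 in the other clones. Ddit4, an inhibitor of mTORC1, read 102, 18.5, 61.5 and 99.8 RPKM in the FOXP2 clones, 69.0, 81.4, 61.1 and 49.4 in the FOXP2-CPED1 clones, and 35.5 and 35.3 in parental and vector cells. Ccng2, a cyclin of arrested cells, read 28.2, 6.61, 26.8 and 18.4 RPKM in the FOXP2 clones, 23.5, 21.9, 28.4 and 7.46 in the FOXP2-CPED1 clones, and 12.4 and 11.8 in parental and vector cells. FOXP2 clone 2 was the lowest library in both, and FOXP2-CPED1 clone 4 was close to it for Ccng2. Gadd45a, which is induced by DNA damage and stress, was highest in FOXP2 clone 4, at 143 RPKM against 25.4 to 67.1 in the other clones.

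Some of the 34 lists of pathway genes are given here, to show where the 200 genes were dense and where they were absent. The lists and the members were chosen with earlier results of these data known. The shares are therefore descriptions and test no pathway. Of 25 expressed cytokine, chemokine and acute phase genes 10 were among the 200 (40%), of 17 adipocyte and lipid genes 7 (41.2%), of 27 genes of amino acid and unfolded protein stress 9 (33.3%), of 17 actin and smooth muscle genes 5 (29.4%) and of 48 collagens and structural matrix genes 11 (22.9%). Over all expressed genes the share is 2.58%. None of 21 interferon-stimulated and antigen presentation genes, 19 genes of cholesterol synthesis, 28 of glycolysis and hypoxia, and 46 of the cytosolic ribosome was among them. Median SDs of these lists were 0.389, 0.356, 0.319 and 0.186, against 0.251 over all expressed genes.

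Pathway genes outside the 200 are described next. Those of the stress and cytokine lists followed the members of their list in some clones and not in others. Of 42 expressed genes of mitosis and DNA replication only Rrm2, a subunit of ribonucleotide reductase, was among the 200. The other 41 were all above the clone mean in FOXP2 clone 2 (median 0.74 on the log2 scale) and in FOXP2-CPED1 clone 4 (median 0.71), and 40 of them were below it in FOXP2 clone 3 (median -0.72). Medians over all expressed genes outside the 200 were 0.07, 0.00 and -0.02 in these clones. All 19 genes of cholesterol synthesis, a list without members, were above the mean in FOXP2 clone 1 (median 0.39) and below it in FOXP2 clone 3 (median -0.48). Of the 18 remaining stress genes, 16 were above the mean in FOXP2-CPED1 clone 4 and 13 in FOXP2 clone 2, with medians of 0.26 and 0.34. In FOXP2 clone 4, which led the serine and ATF4 genes of the 200, 10 of these 18 were above the mean, with a median of 0.15. Of the 15 remaining cytokine and acute phase genes, 13 were below it in FOXP2 clone 4, with a median of -0.38. In FOXP2-CPED1 clone 4 and FOXP2 clone 2, where the inflammatory group of the 200 was low, 10 and 8 of these 15 were above the mean, with medians of 0.17 and 0.21.

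Proteases, their inhibitors and related genes (15 genes) were lowest in FOXP2 clone 3 in 8 cases. Slpi, an inhibitor of leukocyte elastase and the most abundant of the group, read 1138, 1325, 2654 and 415 RPKM in the FOXP2 clones, 2909, 920.4, 1057 and 980.4 in the FOXP2-CPED1 clones, and 778 and 789 in parental and vector cells. Klk10, a kallikrein protease, read 4.56, 20.4, 0.189 and 8.32 RPKM in the FOXP2 clones, 2.81, 1.44, 2.90 and 6.25 in the FOXP2-CPED1 clones, and 4.13 and 3.48 in parental and vector cells. Ece1, the enzyme that makes active endothelin, read 12.8, 7.81, 9.24 and 7.91 RPKM in the FOXP2 clones, 11.02, 10.9, 11.4 and 69.3 in the FOXP2-CPED1 clones, and 9.83 and 11.48 in parental and vector cells. Slpi peaked in FOXP2-CPED1 clone 1 and FOXP2 clone 3, Klk10 in FOXP2 clone 2, and Ece1 only in FOXP2-CPED1 clone 4. Klk8, a further kallikrein, was lowest in FOXP2-CPED1 clone 2 at 0.744 RPKM. Serpinb9b, an intracellular serpin, ranged from 1.53 RPKM in FOXP2 clone 3 to 39.0 in FOXP2-CPED1 clone 4.

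Enzymes of lipids, steroids and detoxification varied without a common order. Ces1d, a carboxylesterase, read 15.6, 0.974, 0.0226 and 7.49 RPKM in the FOXP2 clones, 19.7, 7.61, 9.91 and 0.683 in the FOXP2-CPED1 clones, and 4.19 and 4.37 in parental and vector cells. Hsd11b1, which makes active glucocorticoid, read 3.41, 7.13, 19.5 and 0.585 RPKM in the FOXP2 clones, 10.8, 3.90, 7.57 and 3.00 in the FOXP2-CPED1 clones, and 3.69 and 2.37 in parental and vector cells. Nqo1, a quinone reductase and target of NRF2, read 96.6, 113, 18.9 and 57.8 RPKM in the FOXP2 clones, 90.5, 77.7, 70.5 and 110.5 in the FOXP2-CPED1 clones, and 164 and 154 in parental and vector cells. FOXP2 clone 3 was lowest for Ces1d and Nqo1 and highest for Hsd11b1, and both controls had more Nqo1 than any clone. Gsta3, a glutathione transferase, ranged from 0.926 RPKM in FOXP2 clone 3 to 22.2 in FOXP2 clone 1, and Sod3, the extracellular superoxide dismutase, from 47.2 in FOXP2 clone 4 to 318 in FOXP2-CPED1 clone 1. Abca1, which exports cholesterol, was highest in FOXP2 clone 3 at 10.3 RPKM. Cyp2c55, a cytochrome P450, was apart there at 25.7 RPKM against 3.10 to 8.36 in the other clones.

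Some further genes were apart in 1 clone. Kansl3, a subunit of a histone acetyltransferase complex, read 82.8, 15.2, 15.9 and 17.7 RPKM in the FOXP2 clones, 16.1, 17.4, 16.3 and 16.6 in the FOXP2-CPED1 clones, and 15.2 and 16.4 in parental and vector cells. Ccdc167 read 19.7, 3.61, 3.49 and 3.18 RPKM in the FOXP2 clones, 2.94, 3.17, 3.62 and 3.03 in the FOXP2-CPED1 clones, and 3.54 and 3.05 in parental and vector cells. In both genes the other 9 libraries lay close together, with FOXP2 clone 1 alone high. Cox7b2, a testis form of a cytochrome c oxidase subunit, read 11.2, 36.9, 35.9 and 0.255 RPKM in the FOXP2 clones, 38.4, 8.35, 31.8 and 19.9 in the FOXP2-CPED1 clones, and 6.09 and 4.74 in parental and vector cells, with FOXP2 clone 4 alone near 0. Ngef, a guanine nucleotide exchange factor, reached 29.4 RPKM in FOXP2 clone 2 and at most 3.81 in the other clones. Rab26os was 1.61 RPKM in FOXP2 clone 4 and 8.33 to 25.1 elsewhere among the clones, and Cdsn, a desmosome protein of skin, was 1.70 in FOXP2 clone 3 and 17.0 to 97.1 elsewhere.

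Several members have values that 1 row of a table may not settle. The row of Mir703 was listed at 0 in 7 clones and in parental cells, and at 552 RPKM in FOXP2-CPED1 clone 4 and 649 in vector cells. Rmrp and the U3 genes Rnu3b2 and Rnu3b4, which are short noncoding RNAs, were at or near 0 in some libraries and above 10 RPKM in others, controls included. Mast2, a kinase, was listed at 6.18e-48 RPKM in FOXP2-CPED1 clone 4 and 4.40e-67 in vector cells, and at 26.3 to 41.3 RPKM in the other 8 libraries. Heph, a copper-dependent ferroxidase, was 0.00352 RPKM in FOXP2-CPED1 clone 2, and Fam35a was 4.26 in FOXP2-CPED1 clone 3 and 0.0645 in parental cells. Near-copies of a gene can share reads, and reads of antisense transcripts such as Tbx3os1 cannot be told apart from those of the other strand where counting ignores strand, a setting not given in the sources used here.

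Some pairs of the 200 were consecutive protein-coding genes of a chromosome in the GENCODE annotation. Sned1 and Mterf4 on chromosome 1 were both highest in FOXP2 clone 3, at 132 and 66.6 RPKM, and both were low in FOXP2 clones 2 and 4 and FOXP2-CPED1 clone 4. Tmem176b and Tmem176a, paired membrane protein genes on chromosome 6, were both highest in FOXP2 clone 4, at 112 and 41.1 RPKM. Ctgf and Enpp1 on chromosome 10 were at opposite ends in FOXP2 clone 3, where Enpp1 was highest (15.3 RPKM) and Ctgf next to lowest (9.74 RPKM).

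Little of the variation lay between the constructs. The share of a gene's sum of squares over the 8 clones that lay between the constructs had a median of 3.21% in the 200 genes and 3.93% in all expressed genes. Without FOXP2 clone 3 this median was 14.7%, without FOXP2-CPED1 clone 4 it was 10.97%, and without the 3 clones with mitochondrial rows at 0 it was 15.7%. Leaving out any other single clone gave 2.28 to 4.07%, so the low median depended on FOXP2 clone 3 and FOXP2-CPED1 clone 4. Why it did was not tested. The share tends to be larger with fewer clones even where constructs do not differ. Medians over fewer clones are therefore not strictly on the scale of that over 8 clones. More than 50% lay between constructs in 4 of the 200 genes (2%, against 1.89% of all), namely Abhd14a, AI480526, Vmn1r132 and Myl9. The constructs did not overlap in 3 genes (1.5%, against 1.07% of all expressed genes). Abhd14a, a hydrolase-like protein, was 3.67 to 6.64 RPKM in the FOXP2 clones and 11.51 to 17.9 in the FOXP2-CPED1 clones. Vmn1r132 was 0.427 to 3.78 and 4.28 to 14.2, and Heph 32.4 to 47.9 and 0.00352 to 25.8. In parental and vector cells Heph was 7.88 and 39.0 RPKM, Abhd14a 8.41 and 14.2, and Vmn1r132 4.37 and 4.43. For Heph the parental value lay in the FOXP2-CPED1 range and the vector value in the FOXP2 range. Vmn1r132, AI480526 and Abhd14a are named for their difference between constructs, after their values were seen, as are the other genes named below for where their controls lie.

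A limma fit across 12842 rows compared the arms. Between the constructs it called 0 of the 200 genes and 0% of all rows at an adjusted p under 0.05, with 7 of the 200 (3.5%) and 2.16% of all rows at an unadjusted p under that value. The smallest adjusted p was 0.614, for Abhd14a. The genes were chosen on the same 8 libraries, so the count is a description. The clone numbers of the constructs are names and do not pair the clones.

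Against the controls, 2 of the 200 genes were called for FOXP2 (1%, against 0.436% of all rows) and none for FOXP2-CPED1 (0%, against 0.35% of all rows). Thbs1 was lower in 4 of 4 FOXP2 clones than in both controls, with a log2 fold change of -4.03 ± 0.52 (SE, limma adjusted p = 0.0167). Myl9 was likewise lower in 4 of 4, with a log2 fold change of -2.81 ± 0.40 (SE, limma adjusted p = 0.0226). In FOXP2-CPED1 clones Thbs1 had a log2 fold change of -2.82 ± 0.52 (SE, limma adjusted p = 0.0670). Unadjusted p (limma) was under 0.05 for 20 genes with FOXP2 (10%, against 8.52% of all rows). With FOXP2-CPED1 it was under 0.05 for 17 genes (8.5%, against 7.28% of all rows). Both comparisons share the 2 control libraries. The FOXP2 count was 0 without the parental or without the vector library and 1 without FOXP2 clone 1 or 4. The FOXP2-CPED1 count was 1 without FOXP2 clone 3, FOXP2 clone 4 or FOXP2-CPED1 clone 4.

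The controls show how these genes behave outside the clones. Both controls lay within the range of the 8 clones for 171 of the 200 genes (85.5%, against 71.5% of all expressed genes), which a wide range favours. Both were above every clone for 14 genes (7%, against 6.58% of all expressed genes). Both were below every clone for 5 (2.5%, against 6.22% of all expressed genes). The 14 include 4 of the 8 contractile genes, and Ctgf, Thbs1, Plaur, Plk2, Nqo1, Ptn and Nppb. Their mean in the controls was 1.82 to 10.3 times the clone mean, with Ctgf at 10.3 and Thbs1 at 9.60. The 5 below every clone were Napsa, Dact1, Msln, Thsd7a and Cyp2c55.

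Parental and vector cells, which the rule did not use, were close to each other at most of these genes. Their median absolute difference was 0.13 on the log2 scale in the 200 genes and 0.11 in all expressed genes. At least a 2-fold difference was found in 11 of the 200 (5.5%) against 0.362% of all expressed genes. The 11 were the rows of Mir703, Rnu3b2, Rnu3b4, Rmrp, Mast2, Heph, Fam35a, Npn2, Cebpb, C1s1 and Lat. Without the 4 short noncoding RNAs 7 remained, and with members chosen without FOXP2-CPED1 clone 4 the count was 5. Saa3, C3, Chac1, Grb10 and Hgf, which differed by over 10-fold between clones, were 7.02 to 73.6 RPKM in the controls except for Hgf at 0.926 and 1.17, and none differed by 2-fold between parental and vector cells. With 1 library of each control this comparison has no replicate check.

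**Figure D5:**
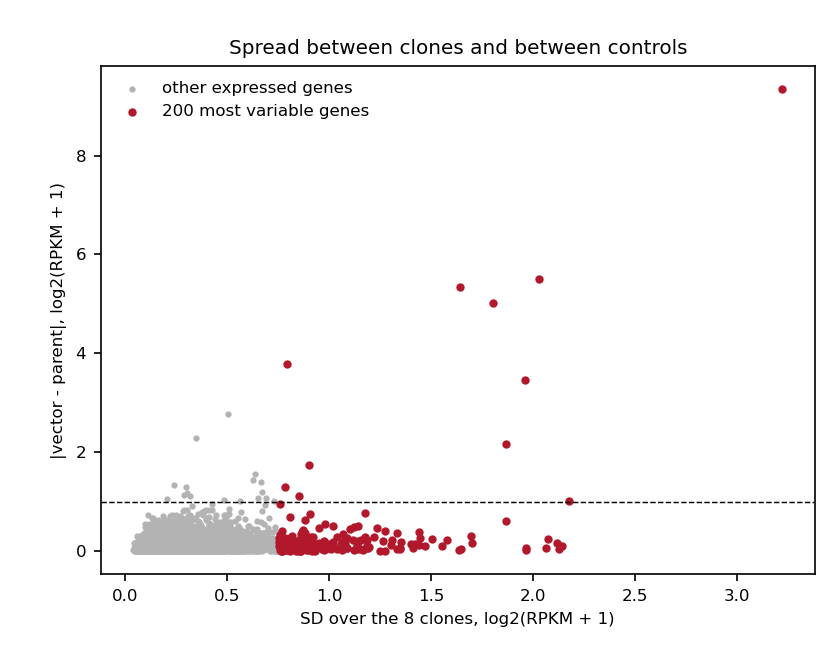
Each point is an expressed gene, with its SD over the 8 clones on the x axis and the absolute difference of vector and parental cells on the y axis, both in log2(RPKM + 1). Red points are the 200 genes, of which 11 lie at or above the dashed line of a 2-fold difference.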

How the data were processed

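RNA of 10 NIH3T3 cultures was sequenced: 1 parental, 1 vector, 4 FOXP2 and 4 FOXP2-CPED1 clones, grouped by GEO's labels. The authors deposited 1 table of RPKM values for 18430 rows, made with HISAT2 and StringTie on the mm9 build, per the submitters' processing notes; no version, strand setting or annotation is given in the sources used here. Read counts and absolute depth are unknown, so no counting interval is given. Columns were matched to samples by name.

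Rows naming 1 gene were kept, with the row of highest mean per symbol, without predicted, RIKEN, mitochondrial and most small RNA names. The members and the lists were chosen with earlier results of these data known, and the roles were assigned after the values were seen. Log values are log2(RPKM + 1). The arms were compared with limma 3.58.1 in R 4.3.3, as 3 groups (both controls as 1), with an intensity trend, over 12842 rows of at least 1 RPKM in at least 2 libraries and Benjamini-Hochberg adjustment at 0.05; it was tested on simulated data. Other values were computed in Python 3.11.15. Nothing says that the samples of the FOXP2 arm or of the FOXP2-CPED1 arm differ by more than clone and library. The control arm pools parental and vector cells, whose labels differ in genotype. The p-values measure only the spread within these arms.

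Genes named in the text are the 20 with the largest SD, up to 3 with the widest gap above and 2 below all other clones for each clone, up to 5 called per comparison, up to 4 per list with 3 or more members, those at the edge of the list, and neighbours; others are said to be, or were, chosen after their values were seen (Phgdh, Shmt2 and Rrm2). Alternatives were other pseudocounts, level limits, rankings, scalings, designs, gap limits, and leaving out each library, the 3 libraries with mitochondrial rows at 0, or (chosen after seeing the data) 4 small RNA rows. Some genes of the list are not reported here. Promoter sequences are RefSeq's, in GRCm38.p6.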

Additional observations from a re-analysis of the deposited data

Results flagged for a closer look

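Within each construct, a clone was set apart when its gap to the nearest of the other 3 clones, divided by the range of all 4, exceeded Dixon's critical value for 4 values. This held in 18 of 186 groups of 4, over 93 named genes (9.68%). Chance sets apart about 1 in 20 groups of values that were not selected, but these genes were chosen for their spread over the same clones, and some for 1 clone apart. The count is therefore a description and no test of a clone.

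FOXP2-CPED1 clone 4 was the clone apart in 9 of the 18 cases. It was high for Ece1 (ratio 0.979), Chac1 (0.900) and the row of Mir703 (1). It was low for Thbs1 (0.935), Mast2 (0.925), Cebpb (0.908), Gpr153 (0.879), Mterf4 (0.858) and Col14a1 (0.846). Among the other FOXP2-CPED1 clones, clone 1 was high for Slpi (0.880), clone 2 low for Klk8 (0.842) and clone 3 low for Rmrp (0.908).

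Among the FOXP2 clones, clone 1 was high for Ccdc167 (0.939) and Kansl3 (0.914), clone 2 for Etv4 (0.897) and the row of Rnu3b2 (1), and clone 3 for Igfbp4 (0.960) and Pcdh10 (0.880). FOXP2 clone 4 was not set apart in any of the groups tested.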

How the results depend on the processing

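Each clone is 1 library, absolute depth is unknown, and only 2 control libraries stand behind each comparison with controls. Of the 200 genes, 125 remained when genes were ranked by median absolute deviation, 148 with a minimum mean of 2 RPKM, 150 with 10, and 159 to 189 when a clone was left out. At a gap of 1.5 on the log2 scale 39 genes split the clones and 23 had 1 clone apart, and leaving out each clone gave 108 to 137 and 56 to 96. The median share between constructs was 15.7% without the 3 libraries with mitochondrial rows at 0, and 2.28 to 14.7% when a clone was left out. With 1 clone left out, it exceeded 4.07% only without FOXP2 clone 3 or FOXP2-CPED1 clone 4. This share tends to be larger with fewer clones even where constructs do not differ. The count of genes 2-fold apart between parental and vector cells was 7 without the 4 small RNA rows, an alternative chosen after seeing the data, and 5 to 13 when a clone was left out, with 5 without FOXP2-CPED1 clone 4. Calls of FOXP2 against control numbered 1 with only the arms compared, 1 without the 3 libraries with mitochondrial rows at 0, and 0 to 3 when a library was left out. Calls of FOXP2-CPED1 against control numbered 1 with only the arms compared and 0 to 1 when a library was left out. In every such case the cause was not tested. Left without the parental library, the adjusted p (limma) of Thbs1 was 0.197 and that of Myl9 0.263.

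The clone numbers do not pair the constructs: over the 12842 rows tested, deviations from the mean of each construct correlated between same-numbered clones at -0.036, -0.240, 0.281 and 0.166. With the number as a replicate block, 0 of the 200 genes were called between constructs, as without it.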
